A study of Homo sapiens with 6 samples.

Results

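Before a cell divides it copies its DNA once from many start sites, the replication origins. In G1 the origin recognition complex (ORC1 to ORC6), CDC6 and CDT1 load the MCM2 to MCM7 ring onto DNA, a step called licensing that geminin (GMNN) holds back after S phase begins. At S phase the CDC7 and DBF4 kinase, MCM10, CDC45 and the GINS complex turn the ring into the active helicase, and the fork then carries the primase, the polymerases alpha, delta and epsilon, the sliding clamp PCNA with its loader RFC, the single-strand binding protein RPA and factors that stabilise it. Many of these genes are transcribed at the G1 to S transition under the E2F factors and are used as signs of cycling cells. The expression of 50 genes for these origin and fork proteins, taken from a fixed list of symbols and all found among the 27216 rows of the deposited RNA-sequencing table, was compared between parental and adapted H1975 cells.

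H1975 is a human line of non-small cell lung cancer (NSCLC) with mutant EGFR, and its genotype is labelled WT. Parental cells were taken at 0 h of Osi (osimertinib, an EGFR tyrosine kinase inhibitor), and adapted cells were those that remained after 72 h of Osi, at 1000 nM by the labels, once apoptotic cells had been rinsed off, with 3 samples in each group. The reagent list of the study names a different dose of the drug, so the dose given to these cells is uncertain. The adapted group is the surviving fraction of 1 cell line. The table names the parental columns for DMSO, and whether those cells were kept in DMSO for any time is not stated, so the drug and the time in culture cannot be told apart. The labels also describe RNase R, an enzyme that degrades linear RNA, before library construction, whereas the study's methods name total RNA only, and the part of this step in the values was not tested. Values are log2(FPKM + 1), where FPKM is a fragment number corrected for gene length and library size. The unit was taken from the values, the depth is unknown, and a difference on this scale understates the change of a low gene.

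The epithelial markers EPCAM, CDH1, KRT8, KRT18 and KRT19 had group means from 7.45 to 9.87 in the table. Of these the keratins were lower in adapted cells (limma), with differences of -0.75 for KRT19 (adjusted p = 0.000474), -0.57 for KRT18 (0.00427) and -0.28 for KRT8 (0.0477), and EPCAM and CDH1 did not pass the threshold (0.162 and 0.972). The leukocyte marker PTPRC was listed at 0 in the parental samples and had a mean of 0.04 in the adapted samples, and CD3E was listed at 0 in all 6. Of the remaining leukocyte markers CD14 was the highest, with means of 0.77 in parental and 0.21 in adapted cells. Fibroblast and endothelial markers were low but not all flat. COL1A1 rose from 2.02 to 3.14, a difference of 1.12 (limma, adjusted p = 7.8e-05). The other fibroblast and endothelial markers were too low to be tested. Of these, CDH5 moved from 0.21 to 1.71, PECAM1 from 1.22 to 0.09, LUM from 0.05 to 0.61 and VWF from 0.03 to 0.24. COL1A2, DCN, PDGFRB and KDR were below 0.1 in both groups. The part of these markers in the results was not tested.

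After 72 h of Osi most replication genes were expressed at a lower level. All 50 passed the filter on low values (a mean of at least 1 over the 6 samples), and 40 of them were lower in adapted cells (limma, adjusted p under 0.05), against 26.2% of all 12656 rows tested. No member was higher, where 30.7% of all rows were, and 10 did not pass the threshold. The median difference of the 50 genes was -0.64, beside 0.03 over all rows tested. For 11 of the 50 the fall was at least 1 log2 unit, against 5.18% of all rows. In 40 genes every adapted sample lay below every parental sample (30.6% of all rows), in ORC4 and POLA1 every adapted sample lay above (35.7% of all rows), and in 8 the groups overlapped. In linear units the summed FPKM of the 50 genes was 1125, 1141 and 1138 in the parental samples and 862, 688 and 680 in the adapted samples. In bulk RNA, fewer cycling cells and less of a transcript in each cell cannot be told apart.

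**Figure D1:**
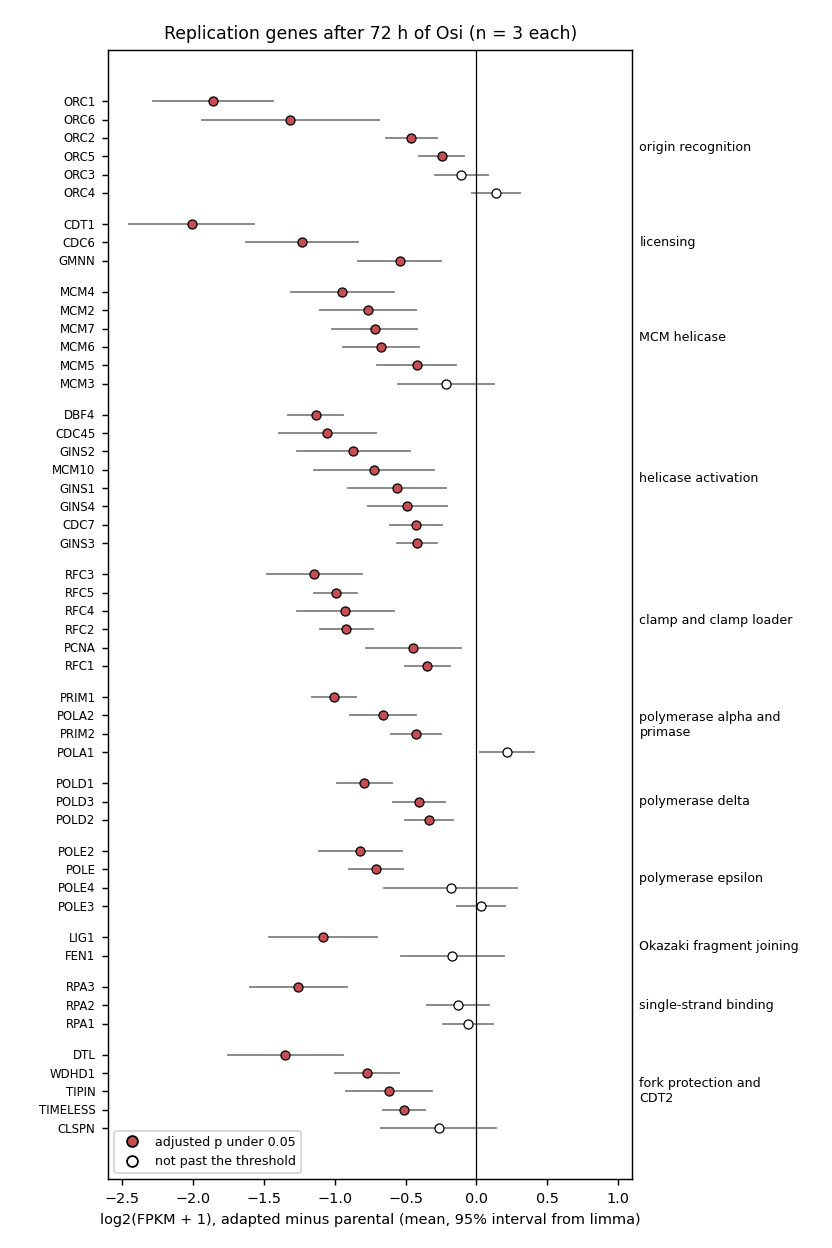
Difference in log2(FPKM + 1), adapted minus parental, for the 50 replication genes grouped by role, with the 95% interval from limma (n = 3 in each group). Filled points passed an adjusted p of 0.05 and lie left of 0 in all 40 cases, with CDT1 (-2.01) and ORC1 (-1.86) farthest left and POLA1 (0.21) farthest right.

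Adapted replicate 1 stood apart from the other adapted samples. Set against the parental mean of each gene, the median of the 50 genes was -0.42 in adapted replicate 1, -0.64 in replicate 2 and -0.76 in replicate 3. This sample had the highest adapted value in 42 of the 50 genes (84%), against 39.6% of all rows tested. It had the lowest adapted value in 3 of the 50 (6%), against 39.2% of all rows. Over all rows it was thus about as often the lowest as the highest. The 12 proliferation markers, a list of mitotic and cell cycle genes that shares no gene with the 50, moved in the same way, with a median of -1.33 in adapted replicate 1 and of -2.15 and -2.17 in the other two. All 12 markers were lower in adapted cells, from -1.60 for CCNA2 to -2.50 for CDK1, and their part in the fall of the replication genes was not tested. Without adapted replicate 1, 45 of the 50 replication genes were lower, against 30.8% of all rows, and the median was -0.70. Rows past the threshold in either direction rose from 7202 to 8370 without it. The sample was set apart by the values of these same genes. The calls that MCM3, POLE4, FEN1, RPA2 and CLSPN gain without it, given below, are therefore no separate evidence of a fall.

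**Figure D2:**
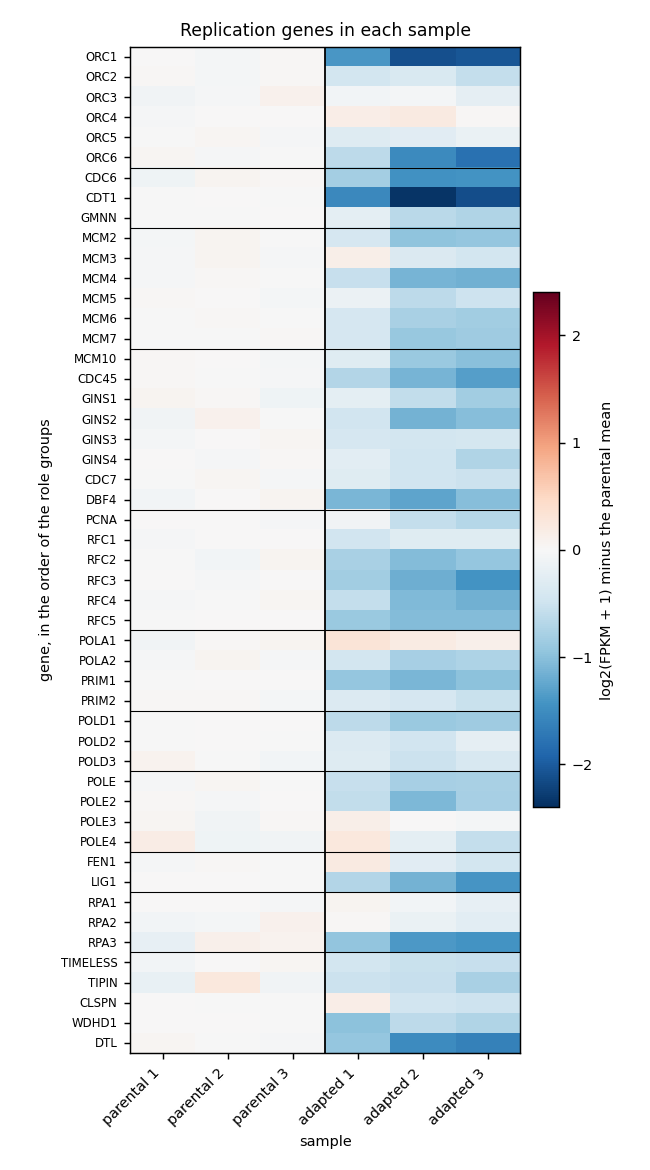
Log2(FPKM + 1) minus the parental mean of each gene, for the 50 replication genes (rows, by role) in the 6 samples (columns); blue is lower and red is higher. The parental columns are close to 0, and adapted replicate 1 is paler (median -0.42) than adapted replicates 2 and 3 (medians -0.64 and -0.76). ORC4 and POLA1 are above 0 in all 3 adapted samples, by amounts that are small on this colour scale.

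Promoter sequence was examined because the members moved together. Of the 50 genes, 44 had an entry among RefSeq promoters (GRCh38.p14), and there was none for MCM4, MCM5, GINS4, POLD3, RPA2 and RPA3. In the 250 bases before the start, E2F-like letters (TTTCGCGC, TTTGGCGC, TTTCCCGC or TTTGCCGC on either strand) occurred in 14 of 44, or 31.8%, against 2.79% of all 27305 promoters and 4.61% of the promoters of tested genes. The letters CCAAT occurred in 25 of 44 (56.8%, against 33% of all promoters and 35.1% of those of tested genes), and the CHR-like letters TTTGAA or TTCGAA, known from late cell cycle genes, in 1 of 44 (2.27%, against 14.6% and 9.37%). The 14 genes with E2F-like letters were ORC3, CDT1, MCM3, MCM6, MCM7, GINS2, PCNA, RFC3, POLA1, POLA2, POLE, POLE4, LIG1 and DTL. Their median difference was -0.69, with 10 of 14 past the threshold, beside -0.59 and 25 of 30 for the genes without the letters. A match is a run of letters and not a bound site, and the lack of a match does not show that a gene has no site. Other starts and the bases after the start were not searched. For some genes, such as RFC5 and GINS3, the bases read lay inside the gene as annotated in GENCODE v29. Shown here are 5 stretches that touch no annotated exon (GENCODE v29), 5′ to 3′ on the strand of the gene and with E2F-like letters in capitals. MCM6 (minus strand, chr2:135876444-135876603) is shown as the promoter with the most matches, 4 in a pair of overlapping runs that read on both strands. PCNA (minus strand, chr20:5126627-5126785) and ORC1 (minus strand, chr1:52404460-52404563, no match) are shown because each fills the gap to a gene that starts in the opposite direction, and MCM3 (minus strand, chr6:52284882-52284992) and POLA1 (plus strand, chrX:24693758-24693917) because they hold the letters and did not fall past the threshold.
MCM6: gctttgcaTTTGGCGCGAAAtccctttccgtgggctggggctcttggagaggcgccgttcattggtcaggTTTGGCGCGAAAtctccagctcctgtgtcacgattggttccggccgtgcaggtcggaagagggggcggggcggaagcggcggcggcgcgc
PCNA: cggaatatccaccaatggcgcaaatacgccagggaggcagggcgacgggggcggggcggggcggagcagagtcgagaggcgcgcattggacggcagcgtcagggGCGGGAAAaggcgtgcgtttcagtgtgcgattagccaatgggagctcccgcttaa
ORC1: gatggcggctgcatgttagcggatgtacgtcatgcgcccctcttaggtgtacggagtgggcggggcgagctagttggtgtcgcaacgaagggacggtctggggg
MCM3: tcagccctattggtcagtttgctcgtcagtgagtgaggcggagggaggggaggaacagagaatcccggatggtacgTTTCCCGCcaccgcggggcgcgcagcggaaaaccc
POLA1: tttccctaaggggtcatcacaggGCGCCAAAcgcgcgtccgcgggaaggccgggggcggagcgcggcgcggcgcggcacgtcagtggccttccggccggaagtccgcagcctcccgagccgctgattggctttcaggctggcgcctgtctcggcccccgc

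The members are described in the order in which they act at an origin and a fork. Differences are adapted minus parental means of 3 samples each, with limma's SE, and adjusted p-values are those of limma over all 12656 rows. The labels do not say that the samples were separate cultures, so these p-values measure the spread between these samples only.

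Of the 6 subunits of the origin recognition complex, ORC1, ORC6, ORC2 and ORC5 fell, and ORC3 and ORC4 did not pass the threshold. ORC1 (chr1:52372829-52404459 in hg38, GENCODE v29), the subunit that is degraded and made anew in each cell cycle in human cells, had values of 4.66, 4.61 and 4.69 in the parental samples and 3.25, 2.54 and 2.59 in the adapted samples. Every adapted value was below every parental value, and the mean fell by 1.86 ± 0.18 (limma, adjusted p = 0.00015), which left 25.3% of the parental FPKM. ORC6, the small subunit that also acts in cytokinesis, was at 4.48, 4.40 and 4.42 in parental and at 3.80, 2.91 and 2.64 in adapted samples. It fell by 1.31 ± 0.27 (limma, adjusted p = 0.00459), with the widest SE of the 50 genes, and adapted replicate 1 lay closer to the parental samples than the other two. Without that sample ORC6 fell by 1.66.

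ORC2 to ORC5 make up the stable core of the complex. ORC2 went from 3.55, 3.47 and 3.54 in the parental samples to 3.07, 3.16 and 2.94 in the adapted samples and fell by 0.46 ± 0.08 (limma, adjusted p = 0.00186). ORC5, which like ORC1 and ORC4 belongs to the AAA+ ATPase family, was at 3.77, 3.83 and 3.74 and then at 3.47, 3.52 and 3.62, a difference of -0.25 ± 0.07 (limma, adjusted p = 0.0161). This call was lost without parental replicate 1 (adjusted p = 0.0535) or parental replicate 2 (0.0748). ORC3 was at 3.60, 3.67 and 3.79 in parental and at 3.63, 3.64 and 3.48 in adapted samples, and the groups overlapped (difference -0.11, 95% interval -0.29 to 0.08, limma adjusted p = 0.28). ORC4 was at 2.86, 2.90 and 2.88 and then at 3.05, 3.09 and 2.92. All 3 adapted values of ORC4 were above the parental ones, but the difference of 0.14 ± 0.07 did not pass the threshold (limma, adjusted p = 0.139). ORC1 minus the mean of ORC2 to ORC5 was 1.22, 1.14 and 1.20 in the parental samples and -0.05, -0.82 and -0.65 in the adapted samples, a shift of -1.69 with no overlap.

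Both licensing factors and their inhibitor fell. CDT1 (chr16:88803213-88809258), which brings the MCM ring to the origin, was the member with the largest fall, from 4.31, 4.32 and 4.31 in the parental samples to 2.77, 1.96 and 2.18 in the adapted samples. The parental values were nearly equal and the adapted ones were all lower, and the mean fell by 2.01 ± 0.19 (limma, adjusted p = 0.000127) to 21.6% of the parental FPKM. CDC6, the ATPase that works with ORC to load the ring, went from 4.18, 4.34 and 4.32 to 3.47, 2.83 and 2.85 and fell by 1.23 ± 0.17 (limma, adjusted p = 0.000725). GMNN, which binds and blocks CDT1, was at 3.75, 3.75 and 3.77 in parental and at 3.51, 3.10 and 3.03 in adapted samples. It fell by 0.54 ± 0.13 (limma, adjusted p = 0.00819), and the order of the pair turned in every adapted sample. CDT1 minus GMNN was 0.56, 0.57 and 0.54 in the parental samples and -0.75, -1.14 and -0.85 in the adapted samples, a shift of -1.47 with no overlap.

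Of the MCM2 to MCM7 ring, 5 subunits fell and MCM3 did not pass the threshold. MCM4 went from 5.20, 5.26 and 5.21 in the parental samples to 4.66, 4.10 and 4.06 in the adapted samples and fell by 0.95 ± 0.15 (limma, adjusted p = 0.00165). MCM2, the subunit that also binds histones, went from 5.48, 5.58 and 5.50 to 5.11, 4.55 and 4.60 and fell by 0.76 ± 0.14 (limma, adjusted p = 0.00324). In both genes the value of adapted replicate 1 was the highest of the adapted samples and still below every parental value. MCM7 was at 6.65, 6.64 and 6.67 and then at 6.25, 5.75 and 5.81, a difference of -0.72 ± 0.13 (limma, adjusted p = 0.00246). MCM6, whose promoter carries the 4 matches shown above, went from 4.83, 4.87 and 4.83 to 4.44, 4.06 and 4.01 and fell by 0.67 ± 0.11 (limma, adjusted p = 0.00201). Neither showed any overlap between the groups. MCM5 was at 4.54, 4.54 and 4.48 in parental and at 4.37, 3.90 and 4.03 in adapted samples and fell by 0.42 ± 0.12 (limma, adjusted p = 0.0184). The MCM5 call was lost without parental replicate 1 (adjusted p = 0.0586), parental replicate 2 (0.0582), adapted replicate 2 (0.0517) or adapted replicate 3 (0.0583), and with no filter on low rows (0.0781).

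MCM3 was at 4.92, 5.001 and 4.91 in the parental samples and at 5.09, 4.59 and 4.51 in the adapted samples, so that adapted replicate 1 lay above the parental values and the other two below them. The difference was -0.21 (95% interval -0.55 to 0.13, limma adjusted p = 0.242), and without adapted replicate 1 it was -0.39 with an adjusted p of 0.000708. Its promoter is among those with E2F-like letters printed above. In linear FPKM, MCM7 was the most abundant subunit in every sample, at 99.2, 98.9 and 101 in parental and 75.0, 52.7 and 55.1 in adapted cells, and MCM5 was the least abundant except in adapted replicate 3, where MCM6 was. The ratio of the highest to the lowest subunit lay between 4.44 and 4.73 in the parental samples and between 3.64 and 3.8 in the adapted samples. The share of MCM7 in the sum of the 6 subunits was 37.4% to 39.0% in parental and 36.3% to 37.7% in adapted samples.

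All 8 genes that fire the loaded ring were lower in adapted cells. DBF4, the subunit that activates the CDC7 kinase, was at 3.86, 3.95 and 3.99 in the parental samples and at 2.83, 2.66 and 2.90 in the adapted samples. It fell by 1.13 ± 0.08 (limma, adjusted p = 4.48e-05), and adapted replicate 1 lay between the other two, unlike in most members. CDC7 itself went from 3.68, 3.72 and 3.64 to 3.39, 3.20 and 3.17 and fell by 0.43 ± 0.08 (limma, adjusted p = 0.00277). CDC45, which joins MCM and GINS in the active helicase, was at 3.85, 3.82 and 3.80 and then at 3.11, 2.71 and 2.49. Its difference of -1.05 ± 0.15 (limma, adjusted p = 0.000776) left 45.1% of the parental FPKM. The differences of the 4 GINS subunits were -0.87 for GINS2, -0.56 for GINS1, -0.49 for GINS4 and -0.42 for GINS3, and all passed. GINS3 was the most even of them, at 3.76, 3.81 and 3.85 in parental and 3.41, 3.37 and 3.38 in adapted samples, with adapted replicate 1 close to the others (limma, adjusted p = 0.000884). GINS1 (adjusted p = 0.0139) was not past the threshold without parental replicate 1 (0.0506) or with no filter (0.0695).

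MCM10, which helps the helicase to start, was the least abundant gene of this group. It was at 1.86, 1.85 and 1.80 in the parental samples and at 1.55, 0.95 and 0.84 in the adapted samples and fell by 0.72 ± 0.18 (limma, adjusted p = 0.0116), a call that was lost with no filter on low rows (adjusted p = 0.0638). MCM10 minus the mean of MCM2 to MCM7 was -3.41, -3.46 and -3.47 in the parental samples and -3.43, -3.54 and -3.66 in the adapted samples, and the groups overlapped (shift -0.10). With a pseudocount of 0.1 in place of 1 the shift was -0.47.

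The clamp and all 5 subunits of its loader fell. RFC3 went from 4.39, 4.35 and 4.39 in the parental samples to 3.55, 3.21 and 2.94 in the adapted samples and fell by 1.15 ± 0.14 (limma, adjusted p = 0.000465). RFC5 went from 4.85, 4.88 and 4.88 to 3.98, 3.83 and 3.82, and its difference of -0.99 ± 0.06 had the lowest adjusted p of the 50 genes (2.84e-05, limma). The 3 adapted samples lay close together in RFC5 and spread widely in RFC3, with no overlap between groups in either gene. RFC4 went from 4.85, 4.87 and 4.92 to 4.31, 3.82 and 3.73 and fell by 0.93 ± 0.15 (limma, adjusted p = 0.00139). RFC2 went from 5.28, 5.22 and 5.36 to 4.50, 4.25 and 4.35 and fell by 0.92 ± 0.08 (limma, adjusted p = 0.000101). The small subunits RFC2 to RFC5 are shared with other clamp loaders, while RFC1 is the large subunit of the replication form alone. RFC1 went from 4.69, 4.74 and 4.74 to 4.26, 4.44 and 4.43 and fell by 0.35 ± 0.07 (limma, adjusted p = 0.00394), and was lowest in adapted replicate 1.

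PCNA, the ring that holds the polymerases on DNA, was at 6.38, 6.38 and 6.33 in the parental samples and at 6.28, 5.79 and 5.69 in the adapted samples. Every adapted value was lower, but adapted replicate 1 came close to the lowest parental sample, and the mean fell by 0.45 ± 0.14 (limma, adjusted p = 0.0319). The call was lost without parental replicate 1, 2 or 3 (adjusted p = 0.0848, 0.0854 and 0.0721), without adapted replicate 2 or 3 (0.103 and 0.091), and with no filter (0.124). Without adapted replicate 1 it was kept, and PCNA fell by 0.62. PCNA minus the mean of RFC1 to RFC5 was 1.57, 1.57 and 1.47 in the parental samples and 2.15, 1.88 and 1.84 in the adapted samples, a shift of 0.42 in favour of the clamp with no overlap.

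**Figure D3:**
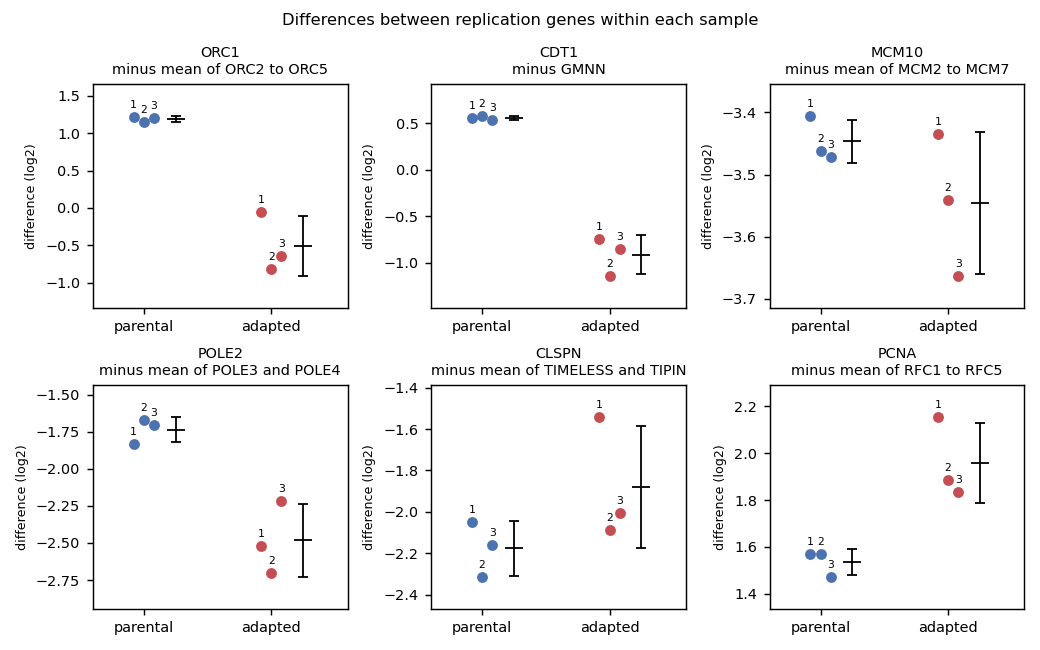
The 6 differences between replication genes of the same sample, in log2(FPKM + 1), for the 3 parental (blue) and 3 adapted (red) samples numbered by replicate, with the mean and SD of each group (each panel has its own axis, which does not start at 0). ORC1, CDT1 and POLE2 are lower relative to their partners in adapted cells (shifts of -1.69, -1.47 and -0.75), PCNA is higher relative to its loader (0.42), and the groups overlap for MCM10 and CLSPN.

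In the polymerase alpha and primase complex, which lays the first primer, 3 of 4 subunits fell. PRIM1, the catalytic primase subunit, went from 4.11, 4.12 and 4.14 in the parental samples to 3.20, 3.03 and 3.13 in the adapted samples and fell by 1.003 ± 0.07 (limma, adjusted p = 3e-05). POLA2 fell by 0.66 ± 0.10 (adjusted p = 0.00119) and PRIM2 fell by 0.42 ± 0.08 (0.00249). POLA1, the catalytic polymerase subunit, was at 2.38, 2.49 and 2.53 in parental and at 2.78, 2.67 and 2.59 in adapted samples. All adapted values of POLA1 were above the parental ones, and the difference of 0.21 ± 0.08 (95% interval 0.02 to 0.40) lay just outside the threshold (limma, adjusted p = 0.0554). It passed the threshold without adapted replicate 3 (adjusted p = 0.0454), after rescaling to an equal sum per sample (0.0461, and 0.0252 with the mitochondrially encoded genes left out of the sum) and without limma's intensity trend (0.0487). POLA1 carries the letters TTTGGCGC, read on the opposite strand, in the promoter shown above. POLA2 and PRIM1 share exon bases with other annotated genes on the same strand, so that the counting could split their reads.

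The polymerase delta subunits, which act mainly on the lagging strand, all fell. POLD1, the catalytic subunit, went from 4.49, 4.51 and 4.51 in the parental samples to 3.88, 3.61 and 3.65 in the adapted samples and fell by 0.79 ± 0.08 (limma, adjusted p = 0.000211). POLD2 was at 6.63, 6.65 and 6.64 and then at 6.31, 6.18 and 6.42, a difference of -0.33 ± 0.07 (limma, adjusted p = 0.00615). In neither gene did the groups overlap. POLD3 fell by 0.41 ± 0.08 (limma, adjusted p = 0.00361).

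Of polymerase epsilon, the main leading-strand enzyme, the 2 larger subunits fell and the 2 smaller ones did not pass the threshold. The catalytic subunit POLE went from 3.94, 4.02 and 3.97 in the parental samples to 3.42, 3.18 and 3.21 in the adapted samples and fell by 0.71 ± 0.08 (limma, adjusted p = 0.000314). POLE2 was at 2.93, 2.87 and 2.90 and then at 2.32, 1.82 and 2.11, a difference of -0.82 ± 0.13 (limma, adjusted p = 0.00124). Both were lower in every adapted sample. POLE3 and POLE4 are histone-fold subunits, and POLE3 also serves in chromatin remodelling complexes. POLE3 was at 5.57, 5.44 and 5.54 in parental and at 5.66, 5.52 and 5.47 in adapted samples, with overlapping groups (difference 0.03, 95% interval -0.14 to 0.20, limma adjusted p = 0.719). The sign of this difference turned without parental replicate 2 (-0.0063) or adapted replicate 1 (-0.0225). POLE4 was at 3.95, 3.66 and 3.67 and then at 4.02, 3.52 and 3.19, and the difference of -0.18 (95% interval -0.65 to 0.29, limma adjusted p = 0.463) was -0.40 without adapted replicate 1 (adjusted p = 0.0247) and 0.0116 without adapted replicate 3. POLE2 minus the mean of POLE3 and POLE4 was -1.83, -1.67 and -1.71 in the parental samples and -2.52, -2.71 and -2.22 in the adapted samples, a shift of -0.75 with no overlap.

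Of the enzymes that finish Okazaki fragments, the ligase fell and the nuclease did not pass the threshold. LIG1, which seals the nick, went from 4.05, 4.05 and 4.02 in the parental samples to 3.34, 2.90 and 2.63 in the adapted samples and fell by 1.08 ± 0.16 (limma, adjusted p = 0.00113). FEN1, which trims the flap before it, was at 4.57, 4.62 and 4.59 in parental and at 4.81, 4.32 and 4.15 in adapted samples. Adapted replicate 1 was the highest of all 6 FEN1 values and the other two were the lowest, and the difference was -0.17 (95% interval -0.53 to 0.19, limma adjusted p = 0.378). Without adapted replicate 1 it was -0.36 (adjusted p = 0.00212). FEN1 shares exon bases with FADS2 on its own strand and with TMEM258 on the other.

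Of the single-strand binding complex RPA, 1 of 3 subunits fell. RPA3, its smallest subunit, went from 4.60, 4.91 and 4.87 in the parental samples to 3.84, 3.42 and 3.36 in the adapted samples and fell by 1.26 ± 0.15 (limma, adjusted p = 0.000329) to 40.0% of the parental FPKM. RPA1, the large subunit that makes most of the contact with DNA, was at 5.28, 5.28 and 5.23 and then at 5.34, 5.21 and 5.08. The groups of RPA1 overlapped, and the difference of -0.06 (95% interval -0.24 to 0.12, limma adjusted p = 0.536) turned to 0.0063 without adapted replicate 3. RPA2, the subunit phosphorylated in the checkpoint response, differed by -0.13 (95% interval -0.35 to 0.09, limma adjusted p = 0.259) and by -0.21 without adapted replicate 1 (adjusted p = 0.0344).

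In the group made of the fork protection factors and DTL, DTL fell most. DTL (CDT2, chr1:212035553-212107400) is the receptor that brings PCNA-bound CDT1 to the CRL4 ubiquitin ligase, and it went from 3.72, 3.67 and 3.66 in the parental samples to 2.76, 2.17 and 2.07 in the adapted samples. It fell by 1.35 ± 0.17 (limma, adjusted p = 0.000528) to 35.1% of the parental FPKM, so that CDT1 and the receptor for its destruction were both among the 3 members with the largest fall. WDHD1 (AND-1), which links the helicase to polymerase alpha, went from 3.98, 3.98 and 3.97 to 2.997, 3.36 and 3.26 and fell by 0.77 ± 0.10 (limma, adjusted p = 0.000492). It was lowest in adapted replicate 1, against the order of most members. TIMELESS went from 4.71, 4.78 and 4.81 to 4.33, 4.23 and 4.22 and fell by 0.51 ± 0.06 (limma, adjusted p = 0.000443). Its partner TIPIN went from 2.75, 3.19 and 2.84 to 2.41, 2.37 and 2.15 and fell by 0.62 ± 0.13 (limma, adjusted p = 0.00547). Both genes of this fork protection pair were lower in every adapted sample.

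CLSPN (claspin), the mediator that passes the ATR signal to CHK1, was at 1.68, 1.67 and 1.67 in the parental samples and at 1.83, 1.21 and 1.18 in the adapted samples. Adapted replicate 1 was above the parental values and the other two were below, and the difference was -0.27 (95% interval -0.67 to 0.14, limma adjusted p = 0.221). Without adapted replicate 1 it was -0.48 (adjusted p = 0.000991). CLSPN minus the mean of TIMELESS and TIPIN was -2.05, -2.31 and -2.16 in the parental samples and -1.54, -2.09 and -2.005 in the adapted samples, and the groups overlapped. MCM3, FEN1, POLE3, POLE4, RPA1 and POLA1, like CLSPN, had their highest value of all 6 samples in adapted replicate 1.

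A further 49 genes of replication outside the 50 were read as companions, all tested. Of these 29 were lower, 4 were higher and 16 did not pass the threshold, with a median difference of -0.48, where 26.2% of all rows tested were lower and 30.7% higher. Of 24 other replisome and origin factors 17 were lower and 2 higher. TOP2A, the topoisomerase that untangles replicated chromosomes, fell by 2.77 ± 0.23 (limma, adjusted p = 7.99e-05) and TICRR (treslin), which helps to load CDC45, fell by 1.47 ± 0.11 (5.82e-05). MCM9, a helicase of DNA repair, rose by 0.63 ± 0.10 (limma, adjusted p = 0.00138). Of 12 genes that restore chromatin behind the fork 9 were lower and 1 was higher. The histone chaperone ASF1B fell by 1.22 ± 0.17 (limma, adjusted p = 0.000888) and CHAF1A, the large subunit of CAF-1, fell by 1.06 ± 0.12 (0.000288), whereas the paralogue ASF1A rose by 0.40 ± 0.08 (0.00361).

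Of 13 genes of the checkpoint kinase pathway and the CRL4 ligase, 3 were lower, 1 was higher and 9 did not pass the threshold, with a median difference of -0.09. The share of lower genes in this list was near the 26.2% of all rows tested, so the count says nothing particular about it. CHEK1, the effector kinase that claspin serves, fell by 1.09 ± 0.17 (limma, adjusted p = 0.0013) and CDC25A, the phosphatase it restrains, fell by 0.52 ± 0.14 (0.0135). DDB1, the adaptor that carries DTL in CRL4, rose by 0.41 ± 0.05 (limma, adjusted p = 0.000517). The receptor DTL and its adaptor DDB1 thus moved in opposite directions, with no overlap between the groups in either gene.

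**Figure D4:**
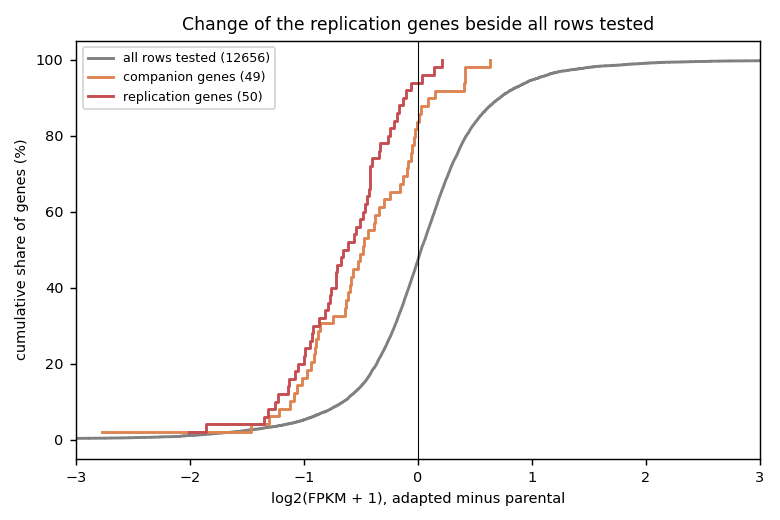
Cumulative share of genes (%) by difference in log2(FPKM + 1), adapted minus parental, for the 50 replication genes (red), the 49 companion genes (orange) and all 12656 rows tested (grey; differences beyond -3 and 3 are not drawn). The medians are -0.64, -0.48 and 0.03, and 47 of the 50 replication genes lie below 0.

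Some of the replication genes start next to a gene on the opposite strand, and the pairs allowed a look at whether the neighbour moved too. How common such pairs are over all genes was not computed. A protein-coding partner that starts within 1000 bases upstream, or overlaps the start by up to 200 bases, was annotated in GENCODE v29 for 16 of the 50 genes, and 15 partners were tested. This look was chosen after the members' values were seen. The median difference was -0.77 for these 15 replication genes and -0.01 for their partners. Of the partners 5 were lower, 5 were higher and 5 did not pass the threshold, which is near the 26.2% of lower and 30.7% of higher rows among all those tested. PRPF38A, a splicing factor that starts 105 bases from ORC1 across the sequence printed above, was at 3.76, 3.76 and 3.79 in the parental samples and at 3.64, 3.67 and 3.76 in the adapted samples, a difference of -0.08 (limma, adjusted p = 0.27) beside -1.86 for ORC1. CDS2, an enzyme of phospholipid synthesis that starts 160 bases from PCNA across the other printed gap, was at 3.18, 3.24 and 3.20 and then at 3.70, 3.64 and 3.44. It rose by 0.38 (limma, adjusted p = 0.00574) where PCNA fell by 0.45.

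The largest contrast within a pair past the threshold on both sides was that of MCM2 and TPRA1, whose starts overlap. TPRA1 was at 4.78, 4.77 and 4.79 in the parental samples and at 5.66, 5.41 and 5.43 in the adapted samples and rose by 0.72 (limma, adjusted p = 0.00025), whereas MCM2 fell by 0.76. DTL and INTS7, 11 bases apart, both fell (differences of -1.35 and -0.36). In TIPIN and MAP2K1, 71 bases apart, the differences were -0.62 and -1.09. MAP2K1 (MEK1) is a kinase of the pathway below EGFR.

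Some members share sequence with other annotated genes. Exon bases were shared with another gene by 21 of the 50, for 6 of them on the same strand. These 6 were POLA2, PRIM1, POLD1, POLD3, FEN1 and TIPIN, and the counting could split the reads of each. Whether the counting used strand is not stated. Pseudogenes of the same name were annotated for 7 members (11 pseudogenes, among them those of PCNA, RFC3 and RPA2), and none of them had a row in the table. The values of these members could hold reads of their copies.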

How the data were processed

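The RNA of 3 parental and 3 adapted samples of H1975 cells was measured by RNA sequencing. The authors deposited 1 table of log2 values, 1 column per sample, whose unit was taken from the values as log2(FPKM + 1). Their processing notes list Bowtie2 2.1.0, STAR, edgeR and the build hg38 with no role, and the quantifier, the annotation and the strand setting are not given in the sources used here. The parental columns, named for DMSO, were assigned to samples through their group and number. The depth is unknown, and errors come from the spread of the replicates.

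The authors used DESeq2, which was not used here because it needs counts. The log2 values were tested with limma 3.58.1 in R 4.3.3 (lmFit, eBayes with an intensity trend, unpaired, two-sided), with Benjamini-Hochberg adjustment over the 12656 rows with a mean of at least 1 and a threshold of 0.05. The scripts were tested on simulated data. In 147 rows the values of 1 group carry an added constant, and none of these rows is a replication or companion gene. The members and lists were chosen with earlier results of these data known, and within-sample differences, promoter letters and neighbours are descriptions with no test of their own. Values in every sample are given for the members with the lowest and the highest difference in each role, for the 5 with the largest fall and for the terms of the within-sample differences. Of the companions, the 2 lowest and the highest of each list past the threshold are named. Other members and neighbours were chosen after their values were seen.

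Other settings tried were a pseudocount of 0.1, no filter, a minimum mean of 3, 4 rescalings between samples, other eBayes settings, a replicate block, each sample left out in turn, leaving out or correcting the rows with a constant, leaving out unnamed transcripts (NewGene_ rows) and a minimum change of 1. The samples were not taken as pairs because the study's methods name no pairing. Same-numbered samples of the groups also did not deviate together (correlations over 12656 rows of -0.0509, -0.0309 and -0.0203). Promoters were read with Python 3.11.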

Additional observations from a re-analysis of the deposited data

How the results depend on the processing

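The count of 40 lower replication genes was also 40 under each of the 4 rescalings, with a pseudocount of 0.1 and with the replicate block, and it was 36 with no filter and 35 of the 42 genes left by the stricter filter. Leaving out each sample in turn gave 36 to 45 lower genes, 0 to 1 higher genes, a median of -0.70 to -0.56, 27 to 32 lower and 3 to 4 higher companions, and 5763 to 8370 of all rows past the threshold. The stricter filter left 33 companions, of which 16 were lower, and 7693 rows, of which 4532 passed. The higher count was 1 (POLA1) after rescaling to an equal sum, with or without the mitochondrially encoded genes, without the intensity trend, and without adapted replicate 3. With a minimum change of 1 log2 unit, 11 replication genes and 8 companions were lower, 0 companions were higher and 1328 rows passed. Of 942 repeats of the members' differences over 19 settings 913 kept their direction and side of the threshold, 16 lost the call and 9 gained it, and 4 changed sign, all from differences that had not passed: POLE3 without parental replicate 2 (-0.0063) and without adapted replicate 1 (-0.0225), and POLE4 (0.0116) and RPA1 (0.0063) without adapted replicate 3. Leaving out 1 sample gave differences of -0.0225 to 0.0746 for POLE3, -0.4036 to 0.0116 for POLE4 and -0.1236 to 0.0063 for RPA1. With the replicate block 40 members and 30 companions were lower, 0 and 4 were higher, the median was -0.64 and 6761 rows passed, and no call of a member changed. Whether same-numbered samples share anything beyond the number is not stated (correlations in the processing section). The causes of the changes between settings were not tested. No depth is known, so the limits of counting cannot be given.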

Other observations

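The size of the fall showed little relation to the level of a gene. Over the 50 replication genes, the parental level and the difference had a Pearson correlation of -0.12 and a Spearman correlation of -0.14. The parental level is itself a term of the difference, and this scale understates the change of a low gene. The relation was not computed on another scale. This is a description across genes, which share the same 6 samples and are not independent replicates.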
